A study of Mus musculus with 6 samples.

Results

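The angiopoietin and Tie genes are 5 of the 32285 genes in the deposited count tables: the ligand genes Angpt1 and Angpt2, the receptor genes Tek and Tie1, and the phosphatase gene Ptprb. They were chosen by gene symbol, with earlier results of these data on Angpt2 in view, so the levels of Angpt2 across the groups are given as a description without a test. RNA was counted in single cells of cortex and subventricular zone from mice aged 8 to 12 weeks, in 6 libraries that form 3 groups of 2. The group labelled ECiKO has the genotype Cx43ECiKO and is titled Vecad, the group labelled GlastiKO has the genotype Cx43GlastiKO and is titled Glast, and the control group has the genotype Cx43flox/flox and is titled CT. Cx43 is connexin 43, the gap junction protein encoded by Gja1. The names of the mutant groups speak of an induced deletion in endothelial cells and in Glast-expressing cells. The labels state neither the Cre transgene nor the inducing agent, nor whether animals were pooled. Tissue was digested with collagenase and dispase for 30 minutes at 37 °C and sorted for CD31+Glast- endothelial cells and Glast+CD31- neural stem and progenitor cells, both CD45-.

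Angiopoietin 1, encoded by Angpt1, is the activating ligand of the receptor tyrosine kinase Tie2, which Tek encodes, and is made mainly by cells around the vessel. Angiopoietin 2, encoded by Angpt2, is made by endothelial cells, is stored in their Weibel-Palade bodies and can block or weakly activate the same receptor depending on context. Tie1 is a related receptor with no well-established ligand that pairs with Tie2 and modulates it. Ptprb encodes VE-PTP, an endothelial phosphatase that removes phosphate from Tie2 and from VE-cadherin. In brain vessels Tie2 signalling is known for keeping the endothelium quiescent and its junctions tight, and Angpt2 for its rise in remodelling or sprouting vessels.

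On the mm10 build, in GENCODE release M21, Angpt1 (ENSMUSG00000022309) lies on the minus strand of chromosome 15 from 42424723 to 42676977. Angpt2 (ENSMUSG00000031465) lies on the minus strand of chromosome 8 from 18690263 to 18741562, and Ptprb (ENSMUSG00000020154) spans 116275523 to 116389535 of chromosome 10, plus strand. Both receptor genes are on chromosome 4, Tek (ENSMUSG00000006386) on the plus strand from 94739289 to 94874976 and Tie1 (ENSMUSG00000033191) on the minus strand from 118471191 to 118490061. The Angpt2 gene overlaps Mcph1 on the opposite strand, and the sources used here do not state whether the counting used strand. Mcph1 counts in endothelial-like cells were 10.00 and 0 CPM (UMIs scaled by the total UMIs of the summed cells) in ECiKO libraries 1 and 2, 9.12 and 4.86 CPM in the GlastiKO libraries, and 13.8 and 33.6 CPM in the control libraries.

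The promoters of Tek and Tie1 are shown because, among the genes described here, promoter sequences were at hand for these receptor genes only. RefSeq sequences on GRCm38.p6 cover 250 bases before and 50 bases after the gene start used for each window. For Tie1 that start differs from the GENCODE one given above. The GENCODE start at 118490061 lies inside the Tie1 window, so most of this window falls within the gene as placed above. Capitals mark GGAA, the core motif of ETS factors, and TTCC, the same motif on the other strand, counted with overlaps allowed. The windows are chr4:94739039-94739338 on the plus strand for Tek and chr4:118489800-118490099 on the minus strand for Tie1, each written 5′ to 3′.
Tek promoter: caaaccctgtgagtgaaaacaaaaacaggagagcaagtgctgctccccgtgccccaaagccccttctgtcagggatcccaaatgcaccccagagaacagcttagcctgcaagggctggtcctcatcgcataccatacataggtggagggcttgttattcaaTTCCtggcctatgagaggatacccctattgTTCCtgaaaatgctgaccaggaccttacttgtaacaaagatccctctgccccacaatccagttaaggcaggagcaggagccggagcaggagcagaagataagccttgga
Tie1 promoter: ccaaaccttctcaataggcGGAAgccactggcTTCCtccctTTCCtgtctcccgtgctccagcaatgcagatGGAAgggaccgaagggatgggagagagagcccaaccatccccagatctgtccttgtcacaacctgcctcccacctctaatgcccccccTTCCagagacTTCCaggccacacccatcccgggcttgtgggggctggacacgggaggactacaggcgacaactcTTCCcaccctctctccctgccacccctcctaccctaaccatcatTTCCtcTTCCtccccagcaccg
The Tek window held 2 matches and the Tie1 window 9. Of the 32851 mouse promoter windows of this length, 96.0% held at least 1 match, 84.6% held as many as Tek and 1.59% as many as Tie1. A match is a run of letters and no evidence of binding.

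The 6 libraries held 7433 barcodes and between 1735247 and 14859187 UMIs (unique molecules) each, and 6274 cells were used. Cells were placed in classes by marker genes that exclude the 5 genes, and 1649 were endothelial-like. These numbered 382 and 20 in ECiKO libraries 1 and 2, 442 and 62 in the GlastiKO libraries, and 698 and 45 in the control libraries, so the libraries numbered 1 were mostly endothelial-like and those numbered 2 mostly oligodendrocyte-like and astroglial-like. ECiKO library 2 was the shallowest, with a median of 786 UMIs per cell against 2792 to 10792 in the others. The sums of endothelial-like cells ranged from 37322 UMIs in ECiKO library 2 to 2466873 in control library 1. The targeted gene, Gja1, had 221 and 214 CPM in endothelial-like cells from the mice labelled ECiKO, 139 and 136 CPM in those labelled GlastiKO, and 89.99 and 109 CPM in the control libraries. It was called higher in the libraries labelled ECiKO (log2 fold change 1.22, edgeR adjusted p = 0.0458), which goes against the label. The call was not kept with DESeq2, which called 0 genes higher for ECiKO. Nor was it kept in edgeR without a cluster led by Klf2 and heat shock genes, again with 0 called higher. Astroglial-like cells had 2576 CPM of Gja1 in the library labelled ECiKO 2, 2495 in the one labelled GlastiKO 2 and 2564 in control library 2. The labels do not say which part of Gja1 is deleted, so 3′ counts may not show the deletion. Only 5 barcodes occurred in more than 1 library.

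Tek, Tie1 and Ptprb were genes of endothelial-like cells in all 6 libraries. Most Angpt2 UMIs lay in this class in the libraries numbered 1, and Angpt1 lay mostly outside it. Over the cells used, endothelial-like cells held 3171 of 3227 Tek UMIs, 1695 of 1723 Tie1 UMIs and 14247 of 14480 Ptprb UMIs, between 98.3% and 98.4% for each gene. They held 228 of 265 Angpt2 UMIs (86.0%) and 5 of 160 Angpt1 UMIs (3.13%). The Angpt2 share was 100% in ECiKO library 1, 97.5% in GlastiKO library 1 and 86.1% in control library 1, but 33.3%, 11.8% and 25% of 3, 17 and 16 UMIs in the libraries numbered 2, which held few endothelial-like cells. In 967 astroglial-like cells, a class that should lack the receptors, Tek and Tie1 had 0 UMIs and Ptprb had 1. The 0 UMIs allow up to 0.381% of cells with a UMI. In 2943 oligodendrocyte-like cells, Tek had 5 UMIs, Tie1 1 and Ptprb 20. The corresponding shares of cells were 72.2% for Tek, 57.7% for Tie1 and 96.8% for Ptprb in endothelial-like cells, at a median of 3177 UMIs per cell against 3857 in astroglial-like and 1253 in oligodendrocyte-like cells. Pericyte-like cells (112, median 4650.5 UMIs) held 5, 2 and 5 UMIs of Tek, Tie1 and Ptprb. Intervals and limits given here and below are at 95% and cover counting error only.

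**Figure D1:**
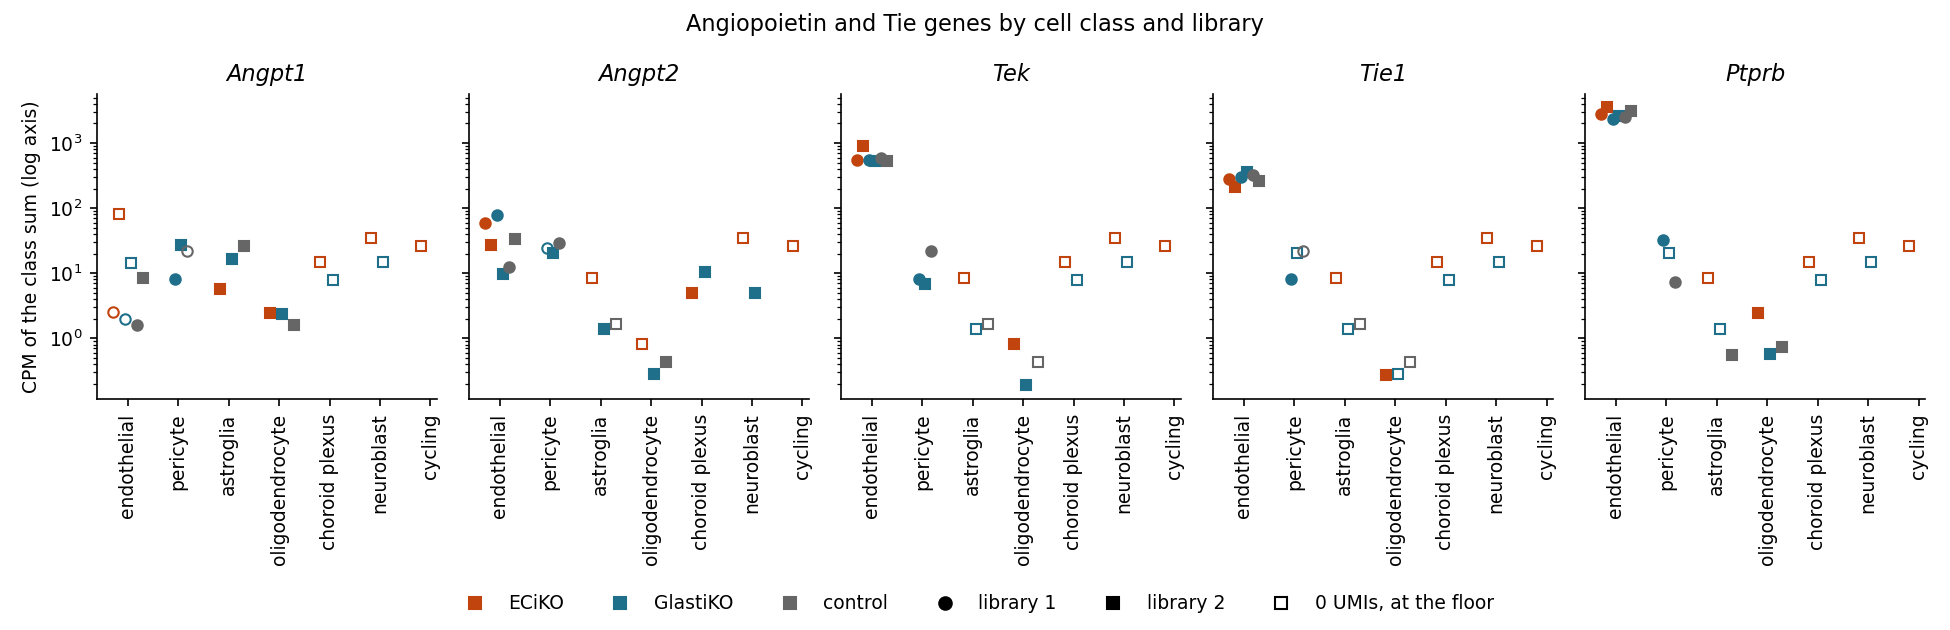
Level of each gene (CPM of the summed UMIs, log axis) in each marker-gated cell class and library, for sums of at least 20 cells. Orange is ECiKO, blue GlastiKO and grey control, circles are libraries numbered 1 and squares those numbered 2, and an open symbol is 0 UMIs drawn at the level of 3 UMIs. Tek, Tie1 and Ptprb lie above 200 CPM only in endothelial-like cells, and Angpt1 of astroglial-like cells lies between 5.62 and 25.9 CPM.

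Angpt1 UMIs came mainly from astroglial-like cells, the class with Slc1a3, Aqp4 and Aldoc that holds astrocytes and neural stem cells. Of the 160 UMIs, 85 were in 66 astroglial-like cells and 45 in 36 oligodendrocyte-like cells. Pooled over libraries this was 19.6 CPM in astroglial-like cells (exact Poisson interval 15.7 to 24.3), 2.13 CPM in oligodendrocyte-like cells (1.55 to 2.85) and 0.898 CPM in endothelial-like cells (0.292 to 2.097). The share of cells with a UMI was 6.83% in astroglial-like and 1.22% in oligodendrocyte-like cells, and 1.79% and 0.193% when each cell was thinned to 1000 UMIs and shallower cells (102 and 1278) were left out. Mural cells also carried Angpt1. The 9 smooth muscle-like cells held 9 UMIs in 4 cells, or 218 CPM (99.8 to 414), and the 112 pericyte-like cells held 5 UMIs in 3 cells, or 9.72 CPM (3.15 to 22.7). The smooth muscle value rests on too few cells for any order among groups.

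Each group had 1 library with enough astroglial-like cells, so Angpt1 could not be tested there between groups. It had 5.62 CPM in ECiKO library 2 (2 UMIs in 2 of 150 cells, interval 0.680 to 20.3), 16.4 CPM in GlastiKO library 2 (35 UMIs in 26 of 405 cells, 11.4 to 22.8) and 25.9 CPM in control library 2 (47 UMIs in 37 of 401 cells, 19.0 to 34.4). The ratio to control was 0.217 for ECiKO (exact interval 0.0255 to 0.829) and 0.634 for GlastiKO (0.398 to 1.00). Median depth moved with the first of these, at 976.5, 4611 and 3778 UMIs per cell in the same order of groups, and its part in the difference was not tested. After thinning to 1000 UMIs the shares of cells with Angpt1 were 0.603%, 1.48% and 2.32%. In the deepest cluster of astroglial-like cells (median depths of 4810, 6005 and 5610 UMIs) the level was 21.7 CPM in ECiKO library 2 (2 UMIs in 20 cells, interval 2.63 to 78.6), 15.3 CPM in GlastiKO library 2 (7 UMIs in 77 cells) and 25.9 CPM in control library 2 (27 UMIs in 176 cells). In another cluster it was 0 in ECiKO library 2 (64 cells), 16.8 CPM in GlastiKO library 2 and 31.3 CPM in control library 2. The 0 allows up to 18.9 CPM, above the GlastiKO value and below the control one. Median depths in this cluster were 1606.5, 4723 and 3713 UMIs in the same order. In the deepest cluster the ECiKO interval covers the values of both other libraries. Oligodendrocyte-like cells had 2.41, 2.38 and 1.60 CPM in ECiKO, GlastiKO and control library 2. In endothelial-like cells Angpt1 had 0 UMIs in all 4 mutant libraries, and 4 and 1 UMIs in control libraries 1 and 2, which was too low to be tested.

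Angpt2 was sparse in the endothelial-like cells of every library, and its level there separated the mutant from the control libraries numbered 1 but not those numbered 2. Among endothelial-like cells, 30 of 382 cells carried it in ECiKO library 1 and 1 of 20 in ECiKO library 2, 40 of 442 in GlastiKO library 1 and 1 of 62 in GlastiKO library 2, and 19 of 698 in control library 1 and 2 of 45 in control library 2. These are shares of 7.85% (Clopper-Pearson interval 5.36 to 11.0%) and 5% in ECiKO, 9.05% (6.54 to 12.1%) and 1.61% in GlastiKO, and 2.72% (1.65 to 4.22%) and 4.44% in control. Thinned to 1000 UMIs per cell, the shares in the libraries numbered 1 were 4.08% in ECiKO, 4.33% in GlastiKO and 1.05% in control, with 61, 27 and 47 shallower cells left out. Pooled over libraries, Angpt2 was in 0.310% of astroglial-like and 0.204% of oligodendrocyte-like cells. ECiKO, GlastiKO and control library 1 held only 2, 6 and 3 astroglial-like and 1, 0 and 0 oligodendrocyte-like cells. These shares therefore give no background level for the libraries numbered 1. Pericyte-like cells were not lower than endothelial-like ones in every library. They had 0 UMIs in 26 cells of GlastiKO library 1 and 20.4 CPM (3 UMIs) in GlastiKO library 2, and 29.3 CPM (4 UMIs in 3 of 30 cells) in control library 1. Choroid plexus-like cells had 4.92 CPM (1 UMI) in ECiKO library 2 and 10.4 CPM (4 UMIs) in GlastiKO library 2.

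The summed level was 59.2 CPM (71 UMIs, interval 46.2 to 74.6) in ECiKO library 1 and 26.8 CPM (1 UMI) in ECiKO library 2. It was 77.5 CPM (119 UMIs, 64.2 to 92.7) in GlastiKO library 1 and 9.71 CPM (2 UMIs) in GlastiKO library 2. In control libraries 1 and 2 it was 12.6 CPM (31 UMIs, 8.54 to 17.8) and 33.6 CPM (4 UMIs, 9.16 to 86.1). The value of control library 2 lies inside the range of both mutant groups, so the groups overlap. Between libraries numbered 1 the ratio to control was 4.71 for ECiKO (3.05 to 7.43) and 6.17 for GlastiKO (4.12 to 9.47). Between libraries numbered 2 it was 0.797 (0.0162 to 8.06) and 0.289 (0.0261 to 2.02), intervals too wide to fix a direction. Fitted with edgeR over all 6 libraries, the log2 fold change was 1.94 ± 0.49 for ECiKO and 2.03 ± 0.46 for GlastiKO. Each SE leans on the spread shared by all genes and groups, and does not measure the spread of Angpt2 between the 2 libraries of a group. With DESeq2 the values were 1.32 ± 1.10 and 1.33 ± 1.05.

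The edgeR fold changes of Angpt2 rest on the libraries numbered 1. For ECiKO the log2 fold change was 0.65 without ECiKO library 1 and 0.87 without control library 1. For GlastiKO it was -0.65 without GlastiKO library 1, a change of sign, and 0.98 without control library 1. Without the cells gated by tip markers, described below, it was 1.46 for ECiKO and 1.23 for GlastiKO. Without a cluster led by Klf2 and heat shock genes it was 1.57 and 0.98. Among markers of other cell types in the endothelial-like cells, the 10 pericyte markers together had at most 35.8 CPM in any library (0 to 14.996 in ECiKO, 4.86 to 35.8 in GlastiKO, 0 to 14.6 in control), with Kcnj8 at 0 in all 6. The 10 astroglial markers summed to 737 and 884 CPM in ECiKO, 855 and 801 CPM in GlastiKO, and 640 and 630 CPM in control, with 3 and 2, 4 and 9, and 6 and 6 of them detected. The 9 oligodendrocyte markers summed to 447 and 991 CPM in ECiKO, 542 and 918 CPM in GlastiKO, and 396 and 891 CPM in control, with 4 and 6, 4 and 7, and 5 and 5 detected. The part of these in the Angpt2 values was not tested.

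**Figure D2:**
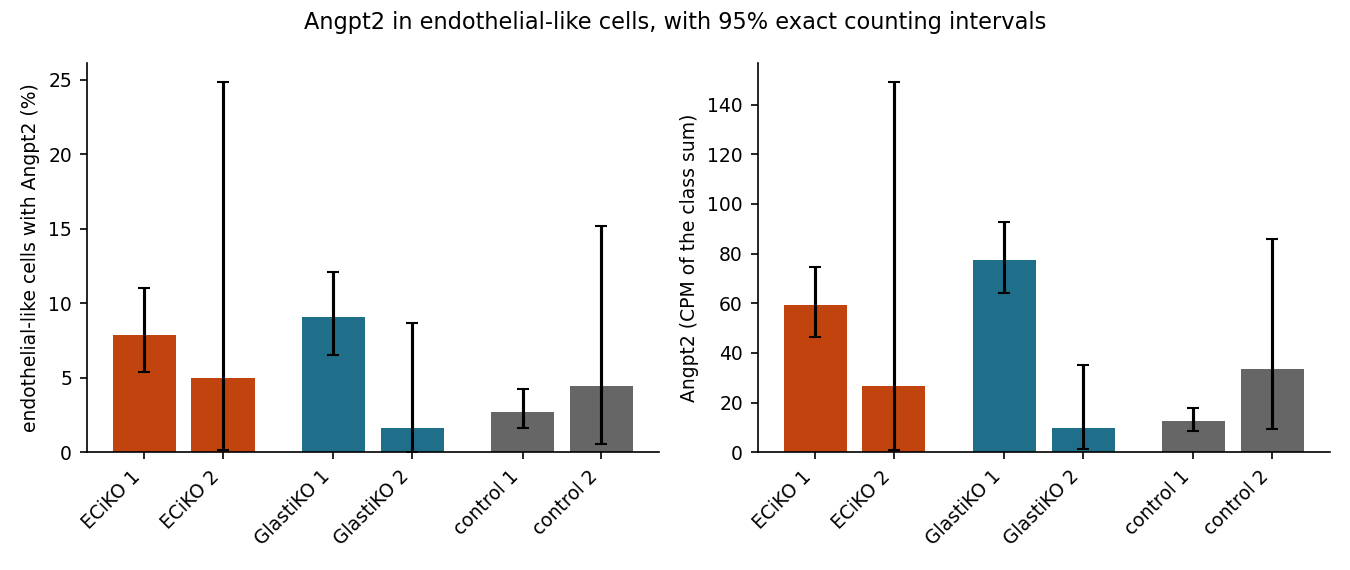
Share of endothelial-like cells with at least 1 Angpt2 UMI (left, %) and Angpt2 level of the summed cells (right, CPM) in each library, with 95% exact counting intervals. ECiKO 1 and GlastiKO 1 have shares of 7.85% and 9.05% against 2.72% in control 1, while the libraries numbered 2 have wide intervals that cover the values of the libraries numbered 1 in all groups but GlastiKO.

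A few cells carried much of the Angpt2 RNA. The 2 highest cells held 14 and 5 UMIs in ECiKO library 1 (26.8% of its Angpt2 UMIs), 24 and 14 in GlastiKO library 1 (31.9%), and 5 and 4 in control library 1 (29.0%). Without these 2 cells the level was 43.6 CPM in ECiKO, 53.4 CPM in GlastiKO and 8.95 CPM in control library 1, the same order as with them. Cells with at least 2 Angpt2 UMIs made up 3.66% of the endothelial-like cells of ECiKO library 1, 4.75% of GlastiKO library 1 and 0.716% of control library 1. Carriers were deeper than other cells, at a median of 4019.5 against 2697.5 UMIs in ECiKO library 1, 4151.5 against 3141 in GlastiKO library 1 and 4428 against 3360 in control library 1.

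The difference between the libraries numbered 1 was widest in cells gated by markers of sprouting or tip endothelium. The gate took cells with at least 3 of 11 markers. Their share of these markers, divided by its mean over endothelial-like cells, had to exceed the same value of any other zone. In ECiKO library 1, 6 of 11 such cells carried 27 Angpt2 UMIs (501 CPM, interval 330 to 730). In GlastiKO library 1, 14 of 33 carried 67 UMIs (433 CPM, 335 to 550). In control library 1, 4 of 41 carried 4 UMIs (20.0 CPM, 5.44 to 51.1), and none held 2 or more. These cells held 38.0% of the Angpt2 UMIs of ECiKO library 1, 56.3% of GlastiKO library 1 and 12.9% of control library 1.

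The cells that passed this gate differed between libraries in the markers they carried. In ECiKO library 1 they carried Cd34 (11 of 11 cells), Nid2 (8), which encodes a basement membrane protein, Adm (7), which encodes adrenomedullin, and Plaur (5), the urokinase receptor, and none carried Plvap, Igfbp3 or Esm1. In GlastiKO library 1 they carried Cd34 (33 of 33), Nid2 (27), Adm (20) and Plaur (14), with Plvap in 1, Igfbp3 in 4 and Esm1 in 1. In control library 1, 27 of 41 carried Plvap, the protein of fenestral diaphragms, 24 Igfbp3 and 22 Esm1, while 15 carried Nid2, 11 Adm and 2 Plaur, and 39 carried Cd34. Apln was in 0 of 11, 6 of 33 and 0 of 41 gated cells of ECiKO, GlastiKO and control library 1, and Kcne3 in 0, 3 and 0. In the same order, Trp53i11 was in 3, 4 and 14 cells and Mcam in 1, 10 and 17. A cluster led by Plvap and Igfbp3 held 26 of the 41 cells in control library 1, 1 of 33 in GlastiKO library 1 and 0 of 11 in ECiKO library 1. Outside that cluster, Angpt2 was in 6 of 11 gated cells (501 CPM) in ECiKO library 1, 14 of 32 (442 CPM) in GlastiKO library 1 and 1 of 15 (16.7 CPM, interval 0.424 to 93.2) in control library 1. So the gated cells of control library 1 were low in Angpt2 both inside the Plvap cluster (21.3 CPM) and outside it.

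Other zones had lower values, given in the order ECiKO, GlastiKO and control library 1. Arterial-like cells, gated by genes such as Bmx and Sema3g, had 16.6, 12.8 and 5.41 CPM of Angpt2. Capillary-like cells, gated by genes such as Mfsd2a and Slc16a1, had 18.1, 47.5 and 17.7 CPM. Venous-like cells, gated by genes such as Slc38a5 and Vcam1, had 17.2, 18.6 and 2.405 CPM. Each of these values rests on 1 to 7 UMIs, and the intervals of ECiKO and control library 1 overlap in all 3 zones. Cells that no zone claimed were the largest set (220, 232 and 378 cells) and had 56.0 CPM (39.0 to 77.9) in ECiKO, 50.7 CPM (35.7 to 69.9) in GlastiKO and 15.9 CPM (9.55 to 24.8) in control library 1. A higher Angpt2 level in the mutant libraries numbered 1 was therefore also present outside the cells gated by tip markers.

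**Figure D3:**
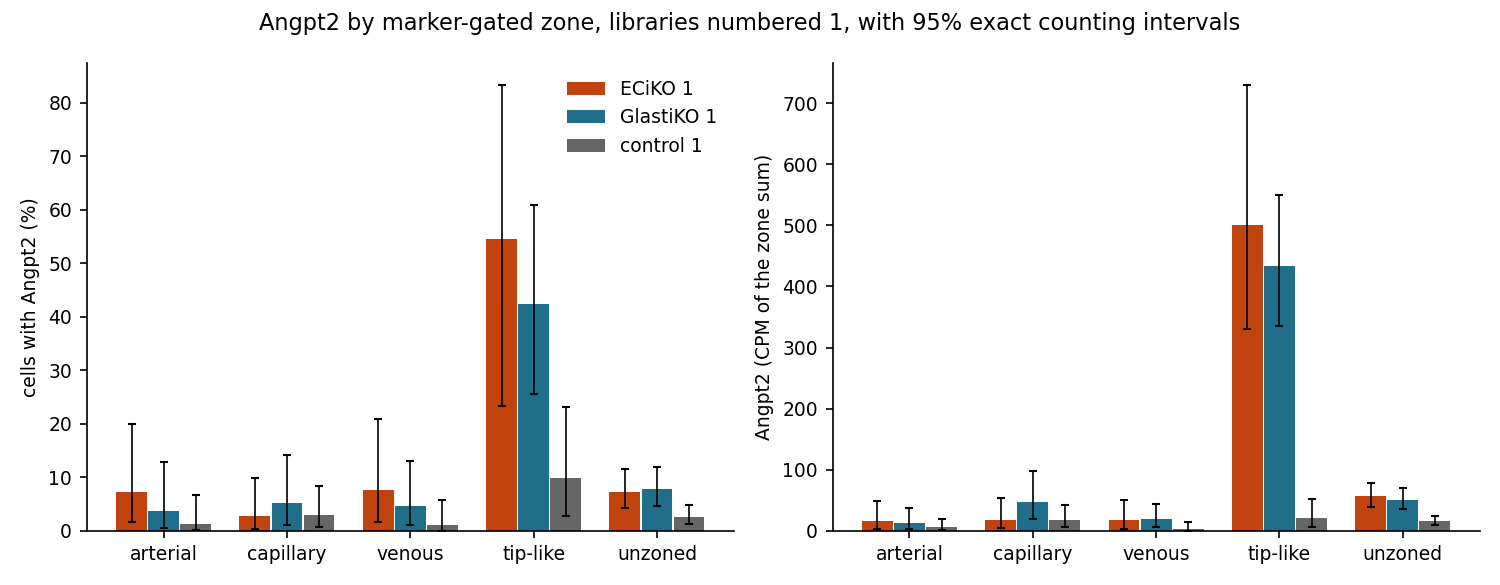
Share of cells with Angpt2 (left, %) and summed Angpt2 level (right, CPM) by marker-gated zone of endothelial-like cells in ECiKO, GlastiKO and control library 1, with 95% exact counting intervals. In cells gated by tip markers the level is 501 CPM in ECiKO 1 and 433 CPM in GlastiKO 1 against 20.0 CPM in control 1.

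Clusters of the endothelial-like cells were made without the 5 genes. In a cluster led by the immediate early and heat shock genes Klf2, Hspa1b and Klf4, Angpt2 had 82.2 CPM (25 UMIs) in ECiKO library 1, 146 CPM (79 UMIs) in GlastiKO library 1 and 6.92 CPM (4 UMIs) in control library 1. This cluster held 62, 114 and 117 cells of the 3 libraries. In a capillary cluster led by Itm2a and Car4 the values were 66.4, 35.6 and 25.1 CPM, and in a cluster led by Utrn and Hmcn1, the shallowest, 40.4, 73.2 and 7.24 CPM. In an arterial cluster led by Sema3g they were 44.2 CPM (9 UMIs in 57 cells), 33.1 CPM (10 UMIs in 77 cells) and 0 (in 135 cells). The 0 allows up to 2.70% of cells with a UMI. The order of ECiKO and GlastiKO differed between clusters, and control library 1 was lowest in each of these 4.

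The receptors and the phosphatase showed no difference between groups that passed the test. Tek had 550 and 911 CPM in the ECiKO libraries, 545 and 529 CPM in the GlastiKO libraries, and 595 and 521 CPM in the control libraries. The value of ECiKO library 2 stood above the others but came from 34 UMIs in 20 cells (631 to 1273). Its log2 fold change was 0.17 ± 0.29 (SE, n = 2 libraries each) for ECiKO and -0.02 ± 0.27 for GlastiKO, with approximate 95% intervals of -0.39 to 0.74 and -0.56 to 0.51.

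Tie1 had 281 and 214 CPM in the ECiKO libraries, 296 and 364 CPM in the GlastiKO libraries, and 320 and 260 CPM in the control libraries, and each mutant group overlaps with control. Its log2 fold change was -0.16 ± 0.30 for ECiKO (-0.74 to 0.42) and 0.15 ± 0.28 for GlastiKO (-0.39 to 0.69). Ptprb had 2789 and 3537 CPM in the ECiKO libraries, 2373 and 2589 CPM in the GlastiKO libraries, and 2523 and 3059 CPM in the control libraries. Its log2 fold change was 0.10 ± 0.28 for ECiKO (-0.44 to 0.64) and -0.11 ± 0.27 for GlastiKO (-0.64 to 0.42). All 3 genes had an edgeR adjusted p of 1.00 in both comparisons. Thus 0 of 3 were called, where 18 of 8603 genes were called for ECiKO (0.209%) and 24 for GlastiKO (0.279%). Genes called higher made up 0.0232% for ECiKO and 0.093% for GlastiKO, and over both directions 131 and 156 genes had an unadjusted p under 0.05. None of the 3 had an unadjusted p under 0.05, and DESeq2 called 2 genes in each comparison and none of the 3. In simulated data of these depths, the fit called 22% of the genes set to change 2-fold and 89% of those set to change 4-fold for ECiKO, and 27% and 91% for GlastiKO. Those genes were drawn from all with at least 20 CPM. Most changes of 2-fold were thus missed over such genes as a whole, and the share for genes at the level of the receptors was not measured.

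**Figure D4:**
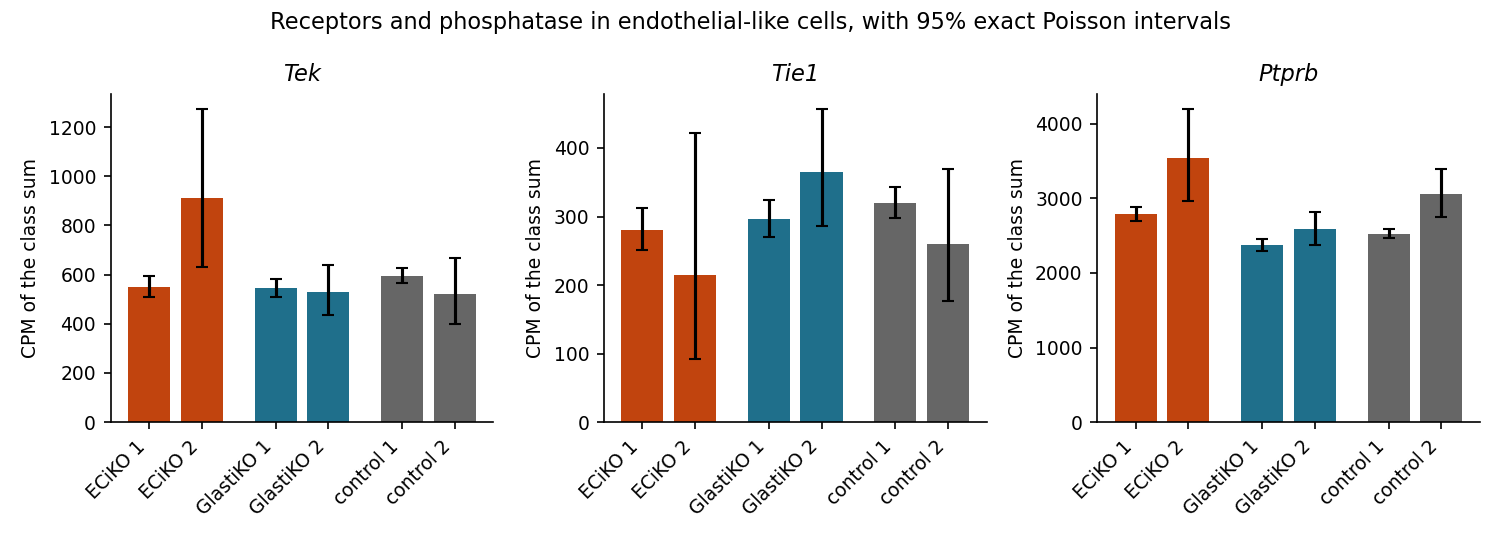
Level of Tek, Tie1 and Ptprb (CPM of the summed endothelial-like cells) in each library, with 95% exact Poisson intervals. Each mutant group overlaps with control for Tie1 and Ptprb, and for Tek ECiKO 2, at 911 CPM, stands above the range of 521 to 595 CPM of the others.

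Across zones and clusters the receptor genes varied less than Angpt2. Tek in cells gated by tip markers was 371 CPM in ECiKO, 388 CPM in GlastiKO and 344 CPM in control library 1, the lowest zone in each. Venous-like cells had 602, 632 and 678 CPM of Tek in the same order. Ptprb in cells gated by tip markers was 2897, 1531 and 1707 CPM, so ECiKO library 1 did not share the low level of the others. In the cluster led by Klf2 and heat shock genes Ptprb was 2006, 1519 and 1777 CPM, against 3120, 2875 and 2857 CPM in the cluster led by Itm2a and Car4. In the libraries numbered 1, among clusters of at least 20 cells, Tie1 was highest in the Plvap cluster of control library 1, at 575 CPM (90 UMIs in 29 cells), where Ptprb was at 1558 CPM.

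In the libraries numbered 1, the summed cells that carried Angpt2 had less Tek than the other endothelial-like cells of the same library. Tek was 332 CPM in carriers and 575 CPM in other cells of ECiKO library 1, 391 and 565 CPM in GlastiKO library 1, and 328 and 605 CPM in control library 1. These 3 libraries point the same way in CPM. The share of cells with Tek was 60% in carriers and 65.1% in others in ECiKO library 1, 80% and 69.9% in GlastiKO library 1, and 68.4% and 77.5% in control library 1, and carriers were deeper. In the libraries numbered 2 there were only 1, 1 and 2 carriers, with Tek at 1691 CPM in the carrier and 858 CPM in other cells of ECiKO and 1031 and 495 CPM in control, the other way round, and 386 and 535 CPM in GlastiKO. Tie1 was 324 CPM in carriers and 276 CPM in others in ECiKO library 1, 238 and 304 CPM in GlastiKO library 1, and 340 and 319 CPM in control library 1, with no shared direction. Ptprb was 3323 and 2728 CPM, 2029 and 2418 CPM, and 2453 and 2526 CPM in the same libraries. A gene higher in carriers by at least 2-fold in all 3 libraries numbered 1, with at least 20 UMIs in the carriers of each, was Ctla2a, which encodes a protease inhibitor, at ratios of 2.12, 2.12 and 2.05. It was the 1 gene of 600 compared that passed, and it is also among the leading genes of the Klf2 cluster. Acer2, Kctd12b, Ivns1abp and Sgk1 came next in rank and did not pass. The VEGF receptor gene Kdr followed them and did not pass either, with ratios of 1.62, 1.87 and 2.24. The same rule, applied to Angpt1 in astroglial-like cells after its values were seen, gave Slc38a1, a glutamine transporter gene, at 6.05 in GlastiKO library 2 and 3.97 in control library 2.

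**Figure D5:**
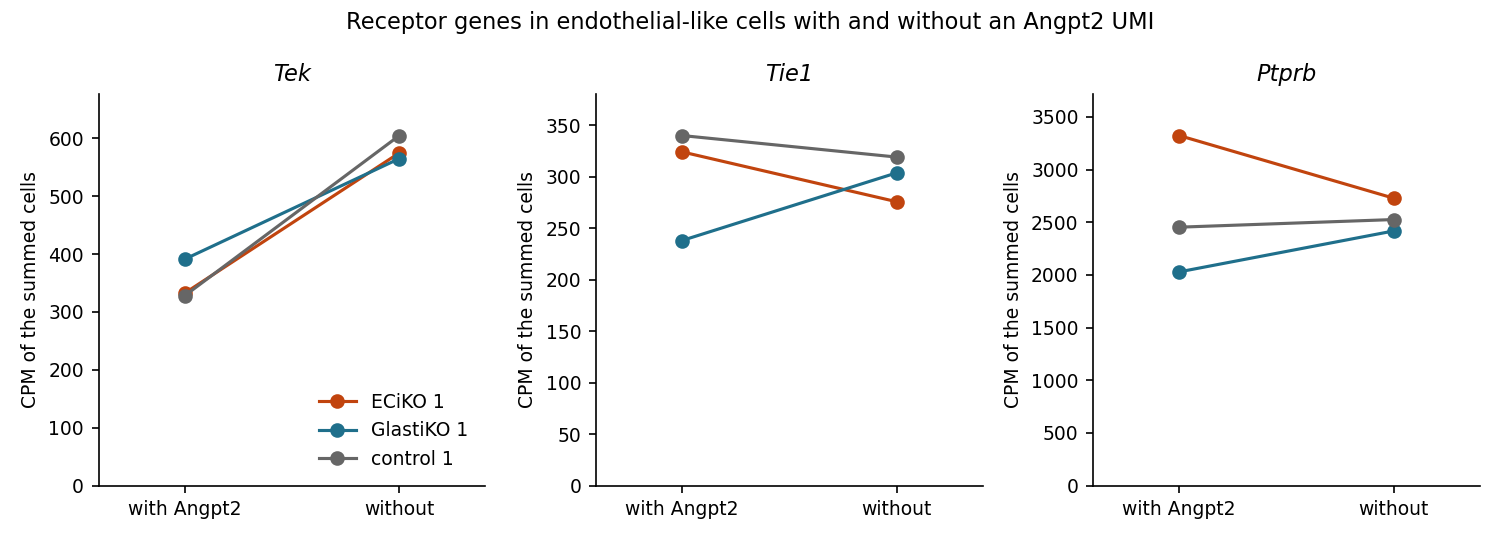
Level of Tek, Tie1 and Ptprb (CPM of the summed cells) in endothelial-like cells with at least 1 Angpt2 UMI and in those without, for ECiKO, GlastiKO and control library 1, with a line joining the values of a library. Tek is at 328 to 391 CPM in carriers and 565 to 605 CPM in the others, while Tie1 and Ptprb show no shared direction.

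Of 26 genes of Tie signalling outside the 5, such as adaptors, kinases and transcription factors, 22 were tested in endothelial-like cells and 0 were called in either comparison, which is near what the 0.209% and 0.279% called among all genes would give. Their median log2 fold change was -0.03 for ECiKO and -0.02 for GlastiKO, beside medians of -0.03 and 0.00 over all genes tested. The smallest unadjusted p values for ECiKO belonged to the adaptor genes Shc1 (0.58 ± 0.43) and Grb2 (-0.26 ± 0.34), the GTPase gene Rhoa (-0.26 ± 0.29) and the integrin gene Itga5 (0.33 ± 0.44). For GlastiKO they belonged to the transcription factor gene Klf2 (0.50 ± 0.27), Tnip2 (-0.80 ± 0.48), which encodes a Tie2 partner that restrains NF-κB, Grb2 (-0.35 ± 0.31) and Shc1 (0.41 ± 0.41). All 8 values are log2 fold changes with SE that did not pass.

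Of 14 genes of Weibel-Palade bodies, where angiopoietin 2 is stored, 7 were tested and 0 called, with medians of 0.13 for ECiKO and 0.10 for GlastiKO. For ECiKO the leading log2 fold changes were those of Plat, encoding tissue plasminogen activator (0.24 ± 0.30), Stxbp5 (0.22 ± 0.36), a regulator of secretory granule fusion, and Edn1, encoding endothelin 1 (0.13 ± 0.29). For GlastiKO they were those of Plat (0.64 ± 0.28), Myrip (0.60 ± 0.41), Vwf, encoding von Willebrand factor (0.21 ± 0.28), and Rab3d (-0.18 ± 0.50). Of 9 genes of VEGF receptors and VE-cadherin partners, 9 were tested and 0 called, with medians of -0.04 and -0.06. The leading values there were those of Flt4 (-0.22 ± 0.33), Plekhg5 (-0.21 ± 0.33), Ctnnd1 (-0.16 ± 0.31) and Flt1 (0.06 ± 0.28) for ECiKO. For GlastiKO they were Fgd5 (-0.34 ± 0.28), Jup (-0.17 ± 0.29), Flt4 (-0.15 ± 0.30) and Ctnnb1 (-0.07 ± 0.27).

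Of 18 genes of sprouting or tip endothelium, 14 were tested and 2, Plvap and Igfbp3, fell in both comparisons, with medians of -0.14 for ECiKO and -0.02 for GlastiKO. These comparisons share the control libraries. Igfbp3, which encodes a binding protein of insulin-like growth factors, stood at -2.39 ± 0.35 on the log2 scale for ECiKO and -2.35 ± 0.31 for GlastiKO. Plvap had 0 UMIs in both ECiKO libraries, and in GlastiKO its value was -4.56 ± 0.42. The list was chosen with earlier results of these data known, so both falls are a description and no p-value is given. In each comparison 0.186% of all genes were called lower. The Plvap cluster held 29 endothelial-like cells in control library 1 and 0 in ECiKO library 1. Without that cluster 2 genes were called for ECiKO and 9 for GlastiKO, against 18 and 24 with it. Genes with a small unadjusted p that did not pass were the Notch ligand gene Dll4 (0.80 ± 0.30) and Mcam (-1.996 ± 0.76) for ECiKO, and Nid2 (0.91 ± 0.32) and Adm (0.99 ± 0.38) for GlastiKO.

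Across 20 sums of cells, each a library and class with at least 20 cells over 7 classes, Tek, Tie1 and Ptprb followed each other, with Pearson r of log2(CPM + 10) of 0.98 for Tek and Tie1, 0.99 for Tek and Ptprb, and 0.99 for Tie1 and Ptprb. The sums share libraries, and the presence of endothelial-like cells sets most of each r. The genes of 12418 most like Tek were Gbp9, Vwf, Adgrl4, Robo4 and Cdh5, at r of 0.99 to 1.00. For Tie1 they were Grrp1, Adgrl4, AW112010, Ly6a and Edn1, and for Ptprb Grrp1, Gbp9, Adgrl4, Cdh5 and Tbx1, all at 1.00. Angpt2 followed Tek less closely, at 0.77, and its nearest genes were Jak3, Lnx2, Adm, Lrrk1 and Rras2, at 0.85 to 0.88. Angpt1 ran apart from the others, at -0.25 with Tek, and genes near it were Ttll3, Gm32618, Ficd and Slc2a10, at 0.80 to 0.84. Angpt1 reached at most 27.1 CPM in any of these sums, so its likeness to other genes rests on few UMIs.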

How the data were processed

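Single-cell RNA was measured in 6 libraries. The authors deposited whole-number UMI counts for each gene and barcode, not normalized. Per the labels' protocols, libraries came from the 10x Chromium 3′ kit version 3.1 and were aligned with Cell Ranger 5.0.0 to mm10, which the file headers also name, but Cell Ranger appears as 2.1.1, beside Seurat 4, in the submitters' processing notes. The labels call the 2 libraries of a group biological replicates without naming animals.

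The 5 genes, the marker lists and the pathway lists were chosen with earlier results of these data known. Cells needed at least 300 genes and at most 20% mitochondrial UMIs (6323 of 7433 barcodes). Scrublet in scanpy 1.11.5 called 49 doublets (0.775%), which were left out. A class needed at least 3 of its markers and at least 2 times the marker share of the next class, and 399 cells (6.36%, 292 of them in ECiKO library 2) had none. A zone of endothelial-like cells needed 3 markers and 1.25 times the relative share of the next zone. The relative share is a cell's marker share of the zone divided by its mean over endothelial-like cells. Leiden clusters (leidenalg 0.10.2, resolution 1, 2000 variable genes, 30 components, 15 neighbours) left out the 5 genes. UMIs of endothelial-like cells were summed per library and tested with edgeR 4.0.16 (R 4.3.3): filterByExpr, TMM, the quasi-likelihood F test on the 6 libraries together, with no term but group, and Benjamini-Hochberg at 0.05 over 8603 genes. With 3 residual degrees of freedom and a biological variation of 17.2%, p-values lean on the spread shared by all genes. Approximate intervals are 1.96 SE either way. CPM scale a gene's UMIs by the total UMIs of the summed cells. DESeq2 1.42.0 was an alternative. The edgeR fit was tested on simulated data, with 10 false calls for ECiKO and 4 for GlastiKO among 8592 and 8575 genes. Genes other than the 5 are named by rule: up to 4 of each pathway list by the smallest unadjusted p, the 5 of highest correlation with each of the 5 genes, and genes at least 2-fold higher in Angpt2 carriers. Some genes that the rule names are not reported here. The genes named beside these, for what they are, were chosen after their values were seen. Where a mutant library is set beside a control library of the same number, no test was made, because each group then has 1 library.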

Additional observations from a re-analysis of the deposited data

Results flagged for a closer look

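Angpt2 in endothelial-like cells differed in direction between the libraries numbered 1 and those numbered 2. The ratio of ECiKO over control was 4.71 in the libraries numbered 1 and 0.797 in those numbered 2, and the ratio of GlastiKO over control was 6.17 and 0.289. The libraries numbered 2 rest on 1, 2 and 4 Angpt2 UMIs in ECiKO, GlastiKO and control. For Tek the order was the opposite one and the difference small, with a ratio of GlastiKO over control of 0.915 in the libraries numbered 1 and 1.02 in those numbered 2. Whether the library numbers differ was not tested in either case.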

How the results depend on the processing

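Tek, Tie1 and Ptprb passed no test under any of 17 alternatives per comparison, at adjusted p of 0.769 to 1.00. The log2 fold change of Angpt2 was above 0 under all 17 for ECiKO (0.65 to 2.17) and under 16 of 17 for GlastiKO (-0.65 to 2.51, below 0 without GlastiKO replicate 1). With each library left out in turn, 4 to 32 genes were called for ECiKO and 6 to 32 for GlastiKO, against 18 and 24 with all, and a group left with 1 library is assumed to vary like the others. For ECiKO there were 4 without ECiKO replicate 1, 8 without control replicate 1, 29 without ECiKO replicate 2 and 32 without GlastiKO replicate 2, and for GlastiKO 11, 9 and 6 without replicate 1 of ECiKO, GlastiKO and control. DESeq2 called 2 genes in each comparison. Without cells gated as tip-like 2 and 6 were called, and without the Plvap cluster, an alternative added after seeing the data, 2 and 9. The cause was not tested. The cluster led by Klf2 was also left out after seeing the data, with 24 and 19 genes called. With the replicate block 27 genes were called for ECiKO and 37 for GlastiKO, and Angpt2 had log2 fold changes of 2.03 and 2.34. Libraries of the same number deviated together at r of 0.04 to 0.09 over 8603 genes, and the main fit did not pair them. This r cannot decide whether they form pairs, because makeup followed the library number. Endothelial-like cells were 90.02 to 96.2% of the libraries numbered 1 and 0.799 to 5.21% of those numbered 2. The 2 libraries of a group were thus unlike in makeup. Of 27 shares of Angpt2-positive cells under other settings, 4 left the counting interval: the 3 thinned ones of the libraries numbered 1, and 0% for at least 2 UMIs in tip-like cells of control library 1. The endothelial-like sums of the libraries numbered 2 rest on 20, 62 and 45 cells in ECiKO, GlastiKO and control.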
